A study of Mus musculus with 2 samples.

Results

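The Snrpn and Peg3 imprinted domains on mouse chromosome 7 were examined for CpG methylation in myotubes with and without knockdown of the long non-coding RNA H19. The genes were Snrpn, Ndn, Magel2, Mkrn3, Peg12 and Ube3a of the Snrpn domain and Peg3, Usp29 and Zim1 of the Peg3 domain, chosen by name. They were 9 of 55413 annotated genes, and each of the 9 held at least 1 compared cytosine, against 32462 genes genome-wide. A compared cytosine was a CpG cytosine with at least 5 reads in each library, lying outside the CCGG and TCGA sites cut by MspI and TaqαI, either in a gene body or within 1 kb of an annotated start. There were 411 of them, on 240 CpGs and 84 restriction fragments, among 1850635 in the genome. All positions are on GRCm38 and count from 1.

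The cells were mouse C3H myoblasts (Sigma-Aldrich), a cultured muscle precursor, differentiated into myotubes and harvested 48 h after transfection with control siRNA (siCon) or with siRNA against H19 (siH19). Genomic DNA was read by reduced representation bisulfite sequencing, in which restriction fragments are size-selected and unmethylated cytosines are converted so that they read as T. The level of a cytosine is the percentage of its reads that still carry C. The siCon library held 104999613 cytosine reads with a median of 12 per cytosine and the siH19 library 106372792 with a median of 13. Those medians of 12 and 13 also take in cytosines that were not compared. Over the 411 compared cytosines the medians were 20 reads in siCon and 16 in siH19. Over all compared cytosines of the genome they were 24 in siCon and 24 in siH19. The cytosines of these domains were thus read less deeply, most of all in siH19. Shares set against the genome below were not matched for depth. There was 1 library per group, so every test below compares 2 libraries and not 2 conditions, and intervals cover counting error only. The counts do not separate the parental alleles, and no RNA was measured in these libraries, so neither the knockdown of H19 nor the muscle identity of the cells could be checked in them.

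An imprinted gene is expressed from the copy of a single parent. The copies are marked by a germline differentially methylated region (DMR), a stretch of CpG-rich DNA methylated in the egg but not in sperm at Snrpn and Peg3, and kept that way through early development by zinc finger proteins such as ZFP57, which binds the methylated hexamer TGCCGC. Such a region is methylated on the maternal copy and unmethylated on the paternal copy, so bulk DNA reads near the middle of the scale. Ndn, Magel2, Mkrn3 and Peg12 are paternally expressed genes far upstream of Snrpn whose promoters gain methylation only after fertilisation, under control of the Snrpn region (secondary promoters), while Ube3a is imprinted in neurons without a methylated promoter. Usp29 starts next to Peg3 and is transcribed away from it, and Zim1, in the same domain, is expressed from the maternal copy.

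Sequence from within the regions taken here as the germline DMRs is shown first, because it holds repeats of the hexamer that ZFP57 binds. Both stretches are introns on the minus strand, written in the direction of Snrpn and Peg3 transcription, with TGCCGC on either strand (GCGGCA when it lies on the other strand) in capitals. The Snrpn stretch, chr7:60004580-60004879, lies inside the first intron of Snurf, which shares its start with the main Snrpn transcript. It holds 4 hexamers, and the CpG of the last of them was a compared cytosine. The Peg3 stretch, chr7:6729958-6730257, begins just after the first exon of Peg3 and holds 3 hexamers, none with a compared cytosine.
Snrpn intron: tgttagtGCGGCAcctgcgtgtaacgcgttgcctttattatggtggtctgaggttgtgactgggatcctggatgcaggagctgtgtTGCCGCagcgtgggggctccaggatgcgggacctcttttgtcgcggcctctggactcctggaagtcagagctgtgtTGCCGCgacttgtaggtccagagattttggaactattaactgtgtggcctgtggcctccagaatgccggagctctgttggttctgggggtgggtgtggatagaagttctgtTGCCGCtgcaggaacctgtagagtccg
Peg3 intron beside exon 1: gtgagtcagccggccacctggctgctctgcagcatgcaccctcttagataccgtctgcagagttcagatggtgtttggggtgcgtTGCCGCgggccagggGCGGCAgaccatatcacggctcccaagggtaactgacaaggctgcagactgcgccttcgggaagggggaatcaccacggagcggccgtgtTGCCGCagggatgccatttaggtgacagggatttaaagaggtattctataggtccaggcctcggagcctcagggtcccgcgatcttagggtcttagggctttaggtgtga

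Further into the Peg3 intron lies a fragment with the motif GCCATCTT, which is bound by the factor YY1, shown at chr7:6728645-6728856 on the minus strand. Capitals mark the motif and the only compared CpG of the fragment, which read 30.8% methylated in siCon (13 reads) and 14.3% in siH19 (7 reads).
Peg3 intron fragment: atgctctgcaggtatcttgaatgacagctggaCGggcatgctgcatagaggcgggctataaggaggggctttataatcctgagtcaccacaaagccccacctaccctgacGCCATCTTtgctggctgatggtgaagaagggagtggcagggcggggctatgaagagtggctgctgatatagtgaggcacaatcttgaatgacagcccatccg

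Sequences at the secondary promoters are shown because their CpGs carry the values described further on, with each compared CpG in capitals and positions counted from 1 at the 5′ end. The Mkrn3 stretch lies just upstream of the gene (chr7:62420154-62420325, minus strand). The other 3 are coding sequence, of Peg12 (chr7:62463640-62463847, minus strand), Ndn (chr7:62348493-62348677, plus strand) and Magel2 (chr7:62377390-62377457, plus strand).
Mkrn3 upstream: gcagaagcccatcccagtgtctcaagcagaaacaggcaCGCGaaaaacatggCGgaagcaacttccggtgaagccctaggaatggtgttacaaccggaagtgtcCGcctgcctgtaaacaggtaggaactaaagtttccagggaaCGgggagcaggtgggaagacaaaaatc
Peg12 coding: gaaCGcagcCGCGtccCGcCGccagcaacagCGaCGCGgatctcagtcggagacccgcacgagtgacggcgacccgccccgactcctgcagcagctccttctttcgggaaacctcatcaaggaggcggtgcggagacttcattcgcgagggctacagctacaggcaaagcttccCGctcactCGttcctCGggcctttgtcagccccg
Ndn coding: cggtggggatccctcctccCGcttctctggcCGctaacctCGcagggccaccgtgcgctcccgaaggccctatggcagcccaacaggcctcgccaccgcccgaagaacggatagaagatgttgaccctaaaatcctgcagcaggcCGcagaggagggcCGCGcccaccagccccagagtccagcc
Magel2 coding: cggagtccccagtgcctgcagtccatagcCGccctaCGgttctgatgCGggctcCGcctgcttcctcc

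The question was whether methylation at imprinted promoters differed after H19 knockdown. Start windows, reaching 1 kb to either side of a start, fell into 3 levels in both libraries. The Snrpn and Peg3 germline DMRs and the windows of Peg12 and Mkrn3 read between 34.1% and 54.5%. The window of Magel2 read above 70%, and those of Zim1 and Ube3a read below 10%. At Peg12 and Magel2 every compared cytosine of the window lay downstream of the start, inside the gene. None of the 7 windows with at least 5 compared cytosines was called different, where a call needs a difference of 10 or more percentage points as well as an adjusted p under 0.05, against 0.626% of 19476 windows genome-wide. None reached the adjusted p alone, against 7.39% of all windows. Differences were pooled over cytosines by the Mantel-Haenszel method, which sets each cytosine against itself, and tested with the Cochran-Mantel-Haenszel (CMH) chi-square test, adjusted over all windows. At an unadjusted p under 0.05 there were 2 of the 7, Zim1 and Mkrn3, against 21.3% of all windows. Read counts of windows, bodies and fragments are sums over their cytosines. Reads on the same molecule count at several cytosines, which makes CMH p-values too small and the counting intervals too narrow.

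**Figure D1:**
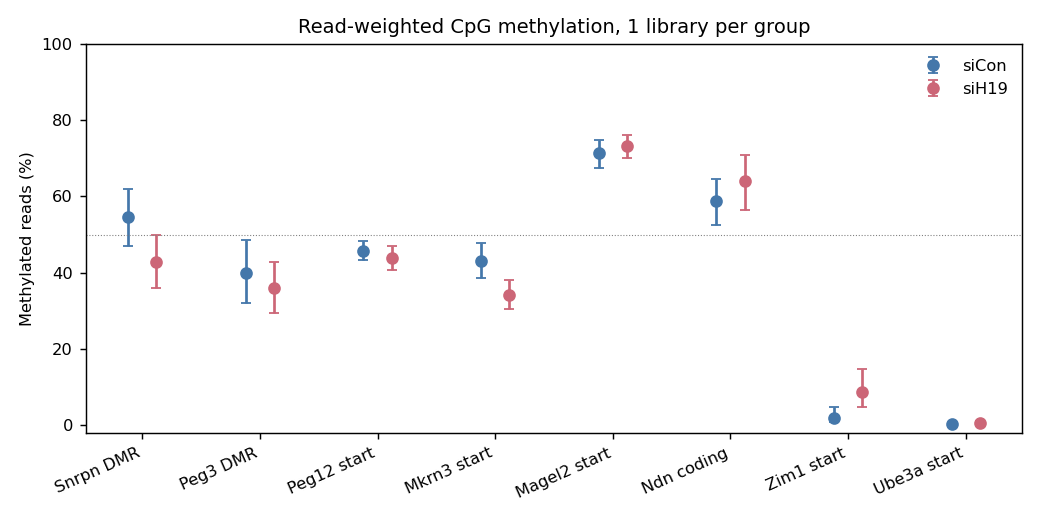
Read-weighted methylation level (percentage of methylated reads) in the siCon and siH19 libraries at the germline DMRs, the other start windows and the coding fragment of Ndn. Points are 1 library each, bars are Wilson 95% counting intervals, and the dotted line marks 50%. The germline DMRs, Peg12 and Mkrn3 lie between 34.1% and 54.5%, while Zim1 and Ube3a lie at 8.59% or below.

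At the Snrpn germline DMR, Snrpn encodes a core protein of the spliceosome and Snurf a small upstream reading frame on the same transcript. The window around the Snurf start (60005049, minus strand) held 7 compared cytosines on 7 of its 49 CpGs, and 90 of 165 reads were methylated in siCon (54.5%, Wilson 95% interval 46.9% to 62.0%) against 83 of 194 in siH19 (42.8%, 36.0% to 49.8%). With each cytosine given the same weight the levels were 50.3% and 47.4%. The Mantel-Haenszel difference was -8.12 ± 5.32 points (SE; 95% interval -18.5 to 2.31), with an adjusted CMH chi-square p of 0.396. It was -2.23 points with the reads of both strands summed (adjusted CMH chi-square p = 0.843) and -13.1 points without cytosines in soft-masked repeats (adjusted CMH chi-square p = 0.175). The direction was not shared within the window, since 3 cytosines were lower in siH19 and 4 were higher.

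The 3 lower cytosines lay downstream of the 4 higher ones. The fragment across the Snurf start (60004900 to 60005091) read 66.7% in siCon (78 reads) and 42.2% in siH19 (64 reads), a difference of -24.5 ± 8.15 points. Its 2 cytosines, at 60005053 and 60005080, had 25 of 39 and 27 of 39 methylated reads in siCon and 13 of 32 and 14 of 32 in siH19, with Fisher's exact p = 0.0589 and 0.0526 (two-sided) before adjustment. Both lie on the same fragment at the same depth, so their reads are not independent. The neighbouring fragment upstream (60005092 to 60005227) moved the other way, from 44.8% (67 reads) to 54.3% (70 reads), a difference of 9.51 ± 8.49 points over 4 cytosines. Inside the intron, the cytosine of the last hexamer of the printed Snrpn sequence (60004603) read 40.0% of 20 reads and 30.0% of 60 reads. No fragment was tested on its own, since they were looked at after the window.

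The Peg3 germline DMR, at the start of a zinc finger gene of the Krüppel type, was read on a single fragment of 65 bp in exon 1 (6730262 to 6730326). The same 6 cytosines, on 3 of 93 CpGs, serve the start windows of Peg3 (6730431, minus strand) and Usp29 (6730578, plus strand). Here 54 of 135 reads were methylated in siCon (40.0%, 32.1% to 48.4%) and 70 of 195 in siH19 (35.9%, 29.5% to 42.8%). Single cytosines ranged from 31.3% to 54.5% in siCon and from 25.9% to 50% in siH19, so every one of them was intermediate in both libraries. The difference was -3.23 ± 5.40 points (95% interval -13.8 to 7.36), adjusted CMH chi-square p = 0.793. At each of the 3 CpGs both strands moved in the same direction, up at 1 and down at 2.

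Over both germline DMRs, 13 of 13 cytosines lay between 20% and 80% in both libraries, against 20.0% of all compared cytosines and 41.8% of the 411 in these domains. Of the 13, 6 were higher and 7 lower in siH19, and none had a Fisher p under 0.05, against 2.53% of all compared cytosines. Counting limits what these windows can show, since the 95% intervals of both differences reach past 10 points below 0.

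**Figure D2:**
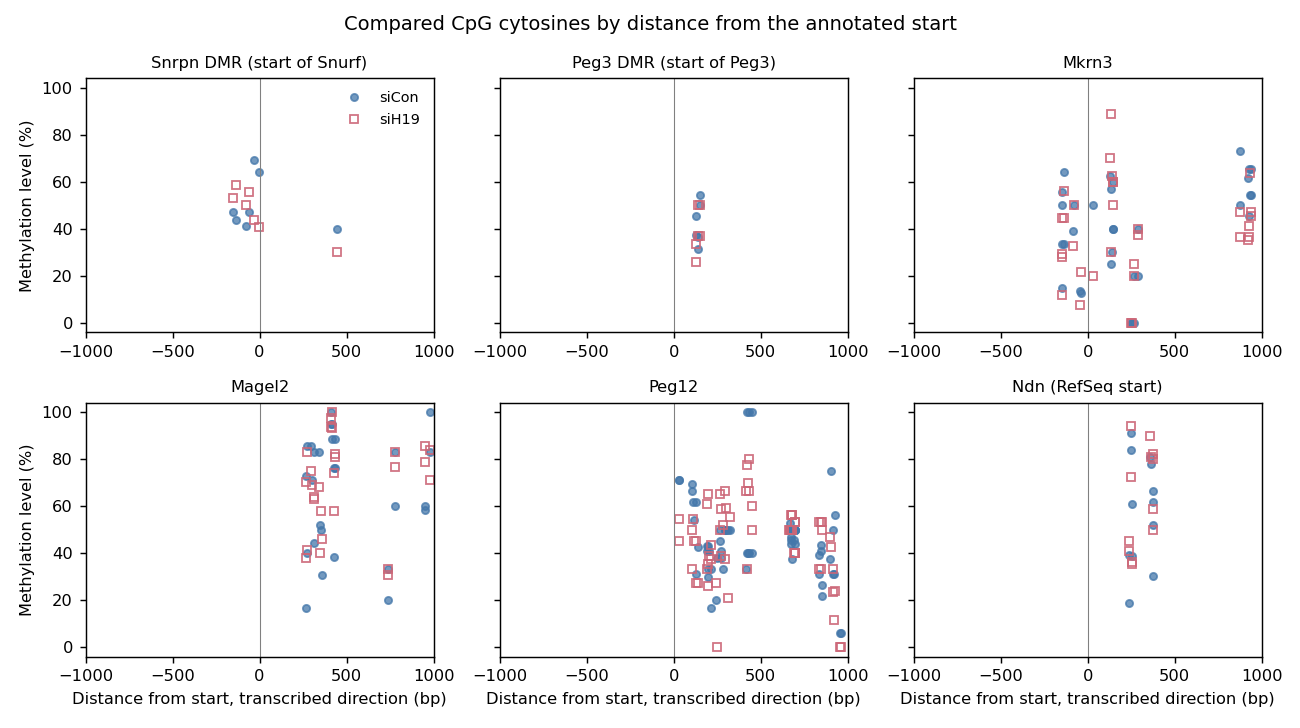
Methylation level of single compared cytosines against their distance from the annotated start, in the direction of transcription, at 6 starts (for Ndn, the RefSeq start). Filled circles are siCon and open squares siH19, 1 library each; all 13 cytosines of the germline DMR panels lie between 25.9% and 69.2%, and those of Magel2 reach from 16.7% to 100%.

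The hexamer TGCCGC was searched on both strands of each window. It had 10 matches in the Snurf window, 6 in that of Peg3, 3 in that of Mkrn3, 2 in that of Ube3a and 1 in that of Zim1, and none in the windows of Ndn, Magel2 and Peg12. At least 1 match was present in 28.6% of all 55413 start windows. In the Snurf window 3 matches held a compared cytosine, and these read 42.6% methylated in siCon and 37.9% in siH19 when their reads were summed. In the Mkrn3 window all 3 lie close together in coding sequence (62419199 to 62419218), where the 6 cytosines read 45.5% to 65.4% in siCon and 35.3% to 63.6% in siH19. In the Zim1 window the 2 cytosines of the match read 0 of 20 and 0 of 23 in siCon and 0 of 8 and 1 of 18 in siH19. The same letters therefore stood in windows of intermediate and of low level. GCCATCTT had 2 matches in the Peg3 window and 1 each in those of Mkrn3 and Ube3a, and was present in 15.9% of all windows.

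Among the genes with secondary promoters, Peg12 was read most fully. The gene encodes a protein of the Frat family, which binds the kinase GSK-3. Its window (start 62464510, minus strand) held 67 compared cytosines, all inside the gene, on 41 of 123 CpGs. Of its reads, 705 of 1541 were methylated in siCon (45.7%) and 442 of 1008 in siH19 (43.8%). The difference was -0.231 ± 2.03 points (95% interval -4.21 to 3.74), adjusted CMH chi-square p = 0.972. The interval takes reads at neighbouring cytosines as independent, so it is too narrow to exclude a change of 10 points. The sign of the difference turned positive under 3 of the processing alternatives described further on. Of the 67 cytosines, 59 lay between 20% and 80% in both libraries.

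Levels varied along Peg12. The printed coding fragment read 44.2% in siCon (633 reads) and 50.2% in siH19 (233 reads), and its 11 CpGs ranged from 24.6% to 51.7% and from 40.0% to 54.5%. The fragment at the start (62464361 to 62464495) read 58.9% and 42.7%, a difference of -16.1 ± 5.63 points. The fragment nearest the end of the window (62463519 to 62463617) read 36.7% and 23.0%, a difference of -14.3 ± 4.91 points. The 4 fragments between these read higher in siH19 by 0.212 to 8.79 points. Further on, in exon sequence after the coding part, the intermediate level ended. A fragment at 62462182 to 62462354 read 4.55% and 2.50%, and its neighbour at 62462355 to 62462438 read 2.27% of 44 reads in siCon and 0 of 55 reads in siH19, which allows a level of up to 5.45%.

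Mkrn3 encodes a makorin ring finger protein, a ubiquitin ligase that restrains the onset of puberty. Its window (start 62420139, minus strand) held 32 compared cytosines on 18 of 75 CpGs. It read 43.0% in siCon (188 of 437 reads) and 34.1% in siH19 (199 of 584 reads). The difference was -6.38 ± 2.96 points (95% interval -12.2 to -0.576), with p = 0.0344 by the CMH chi-square test and 0.193 after adjustment. With each cytosine given the same weight the levels were 40.0% in siCon and 38.8% in siH19. Of the 32 cytosines, 12 were higher in siH19, 15 lower and 5 equal. With at least 10 reads per cytosine, 15 cytosines remained and the difference was -12.8 points with an adjusted CMH chi-square p of 0.0133, which would be a call. With windows of 500 bp, 24 cytosines were included and the difference was -2.21 points with an adjusted CMH chi-square p of 0.764, so the size of the difference depends on the minimum depth and on the window.

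The lower level of Mkrn3 in siH19 was not spread evenly. The coding fragment that holds the hexamers (62419188 to 62419303) read 61.9% and 43.8%, a difference of -17.4 ± 6.14 points. An upstream fragment, centred 0.153 kb before the start (62420259 to 62420325), read 40.8% and 31.2%. In contrast, the coding fragment at 62419845 to 62419998 read 25% and 35.4%, a difference of 10.9 ± 6.56 points. In the printed upstream sequence, neighbouring CpGs differed within each library. The CpG at position 53 read 55.0% and 51.9%, that at position 41 read 53.8% and 34.6%, and the adjacent one at position 39 read 20.5% and 17.3%. The CpG at position 146, nearest the gene, was the lowest at 13.3% and 11.1%, and that at position 105 read 41.9% and 37.0%.

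Magel2 and Ndn encode proteins of the MAGE family. The Magel2 window (start 62377010, plus strand) held 28 compared cytosines, all inside the gene, and read 71.3% in siCon (408 of 572 reads) and 73.2% in siH19 (563 of 769 reads). The difference was 2.62 ± 2.14 points (95% interval -1.56 to 6.81), adjusted CMH chi-square p = 0.532. In both libraries its Wilson 95% interval lay above those of the Snrpn, Peg3, Peg12 and Mkrn3 windows. In the printed coding sequence the CpGs at positions 30 and 37 read 95.9% and 94.1% in siCon and 96.7% and 95.1% in siH19. Position 48, a few bases on, read 46.8% and 63.6%, and position 55 read 78.4% and 82.0%.

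No cytosine was compared within 1 kb of the annotated Ndn start (62346569). The values for Ndn come from 1 coding fragment of 185 bp, which does fall in the window of the start that RefSeq gives (62348277). It read 58.7% in siCon (152 of 259 reads, 95% interval 52.6% to 64.5%) and 64.0% in siH19 (105 of 164 reads, 56.4% to 71.0%). The difference over its 12 cytosines was 5.65 ± 4.36 points (95% interval -2.90 to 14.2), adjusted CMH chi-square p = 0.636.

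Within this short sequence of Ndn the 6 CpGs ranged widely in both libraries, and their order was not the same. At position 32 the level was 88.1% in siCon and 85.7% in siH19, and at position 146 it was 79.5% and 84.6%. At position 20 it was 29.5% and 42.9%, at position 41 it was 51.2% and 35.7%, at position 159 it was 59.1% and 81.5%, and at position 161 it was 45.5% and 55.6%. Across the 12 cytosines of Ndn, Pearson's r between the libraries was 0.704 (Spearman's rho 0.657), given as a description, since cytosines of 1 fragment share their reads. The same measure was 0.696 over the 32 cytosines of Mkrn3, 0.562 over the 28 of Magel2, 0.291 over the 67 of Peg12 and 0.156 over the 13 of the germline DMRs, where levels lie close together. It was 0.875 over all 411 and 0.953 over the genome.

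Zim1, which encodes a zinc finger protein, was nearly unmethylated at its start (6696450, minus strand). On 1 fragment with 10 compared cytosines, 4 of 213 reads were methylated in siCon (1.88%, 95% interval 0.733% to 4.73%) and 11 of 128 in siH19 (8.59%, 4.87% to 14.7%). The difference was 6.65 ± 2.53 points (95% interval 1.69 to 11.6), CMH chi-square p = 0.00430 and 0.0552 after adjustment, short of a call in size and in adjusted p. Over the alternatives tried the adjusted p for Zim1 ran from 0.0348, with summed reads and Fisher's exact test, to 0.197. Single cytosines reached 5.00% in siCon and 25% in siH19. The highest, at 6696526 on the plus strand, rested on 8 reads in siH19.

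Ube3a, the ubiquitin ligase at the far end of the Snrpn domain, had the lowest level of the 7 start windows tested (start 59228750, plus strand). Over 87 compared cytosines, 8 of 2556 reads were methylated in siCon (0.313%) and 9 of 1517 in siH19 (0.593%), and 73 cytosines read 0 in both libraries. The difference was 0.329 ± 0.237 points, adjusted CMH chi-square p = 0.378. With CCGG and TCGA cytosines kept it was 1.53 points (adjusted CMH chi-square p = 0.0183). The 5 fragments each read below 1% in both libraries. One of them, at 59229426 to 59229533, had 0 methylated reads of 171 and 145, summed over 8 cytosines. By the rule given above this allows a level of up to 1.75% and 2.07%, limits that are too low for summed reads.

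**Figure D3:**
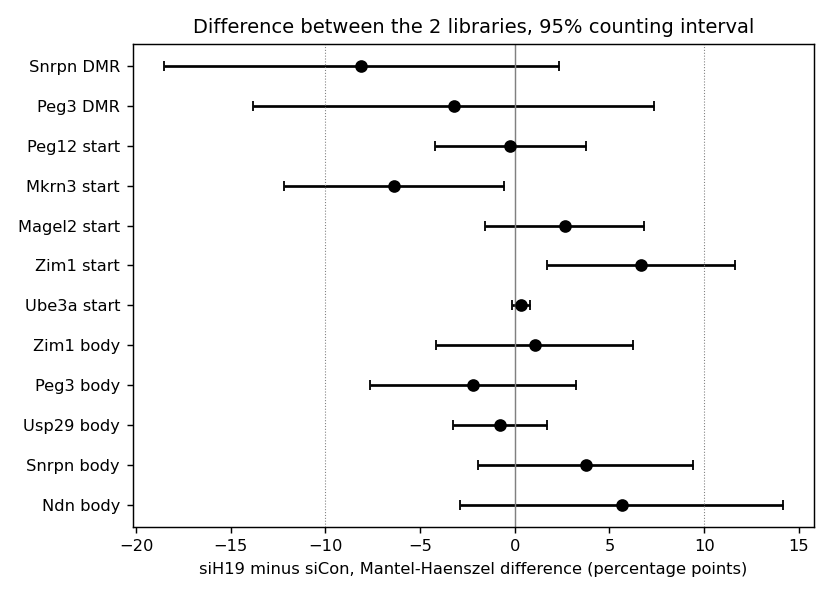
Mantel-Haenszel difference in methylation level, siH19 minus siCon in percentage points, for the 7 start windows and the 5 tested bodies. Bars are 95% counting intervals and dotted lines mark 10 points to either side of 0. The intervals of Mkrn3 and Zim1 leave out 0, that of Ube3a spans less than 1 point, and the widest, that of the Peg3 DMR, runs from -13.8 to 7.36.

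Intermediate level was uncommon among start windows. In both libraries 3 of the 7 windows (Snrpn, Peg3 and Peg12) lay between 35% and 65%, against 8.50% of all tested windows, with Mkrn3 just outside at 34.1% in siH19. A further 2 of 7 (Zim1 and Ube3a) lay below 10% in both, against 58.7% of all windows. The median level over the 7 windows was 43.0% in siCon and 35.9% in siH19, and over all windows it was 3.86% and 3.83%.

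Gene bodies were taken without the start windows. None of the 5 with at least 5 compared cytosines was called, against 0.316% of 18018 bodies genome-wide, and none had an unadjusted CMH chi-square p under 0.05, against 13.1%. Peg3, read mostly in coding sequence, was at 71.5% in siCon (431 reads) and 74.2% in siH19 (318 reads), with a difference of -2.21 ± 2.78 points per cytosine, adjusted CMH chi-square p = 0.813. Zim1, also read mostly in coding sequence, was at 69.4% (540 reads) and 72.0% (450 reads), a difference of 1.04 ± 2.64 points, adjusted CMH chi-square p = 0.919. Both zinc finger genes thus carried high levels in their coding exons, opposite to the low level at the Zim1 start and the intermediate level at the Peg3 start.

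Inside the coding sequence of Peg3 the level was uneven. Fragments at 6711267 to 6711466 and 6711467 to 6711608 read 93.8% and 90.9% in siCon and 93.8% and 86.7% in siH19. The fragment at 6708423 to 6708592 read 37.3% (51 reads) and 25% (16 reads), from 1 CpG. In Zim1 the fragment at 6678078 to 6678222, also from 1 CpG, read 33.3% (21 reads) and 52.9% (17 reads), while the 4 other coding fragments lay between 62.8% and 80.2% in siCon and between 71.2% and 75% in siH19.

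The body of Usp29, a gene for a deubiquitinating enzyme that spans 6730578 to 6967219, was the most widely sampled, with 96 compared cytosines on 32 fragments. It read 37.6% in siCon (1753 reads) and 39.6% in siH19 (1797 reads), with a difference of -0.796 ± 1.27 points (95% interval -3.28 to 1.69), adjusted CMH chi-square p = 0.866. Methylated and unmethylated stretches alternated along its introns. In both libraries 9 fragments lay below 20% and 13 above 50%.

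A run of low fragments in Usp29 lay about 183 kb from its start. Its 3 fragments (6913652 to 6914426) read 6.52%, 2.65% and 2.53% in siCon and 2.78%, 1.79% and 0% in siH19, the last with 0 of 109 reads, which allows up to 2.75%. The fragments on either side of it were higher, at 87.5% and 64.3% at 6905166 to 6905354 and at 40.4% and 30.6% at 6918820 to 6918965. At 206.5 kb a fragment at 87.9% and 71.4% (6937064 to 6937172) was followed by one with 1.64% of 61 reads in siCon and 0 of 30 in siH19, which allows up to 10.0%. The widest gap on at least 30 reads in each library was at 6880643 to 6880772, with 91.8% in siCon (49 reads) and 50% in siH19 (36 reads), a difference of -42.0 ± 8.98 points that was picked out after the values were seen.

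**Figure D4:**
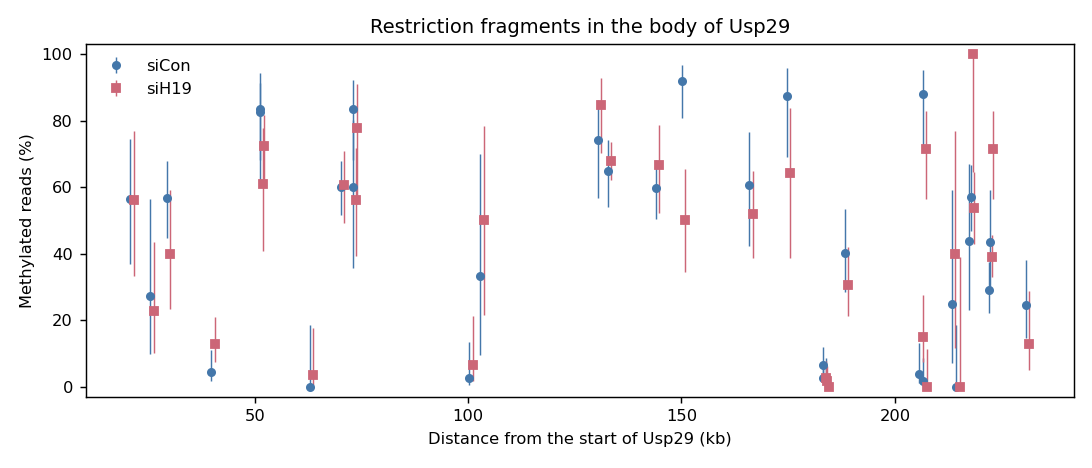
Methylation level of the 32 restriction fragments in the body of Usp29 against distance from its start in kb, with siH19 points drawn slightly to the right of their true position so that both can be seen. Points are read-weighted levels in 1 library each, bars are Wilson 95% counting intervals, and 9 fragments lie below 20% and 13 above 50% in both libraries.

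The body of Snrpn reaches from 59982495 to 60140219, far upstream of the Snurf start, with 14 compared cytosines on 8 fragments, all in introns on that upstream side. No cytosine was compared within 1 kb of its most distant annotated start (60140219). The level was 7.51% in siCon (213 reads) and 19.9% in siH19 (201 reads), but the difference within cytosines was 3.74 ± 2.90 points (95% interval -1.94 to 9.42), adjusted CMH chi-square p = 0.653. The test on summed reads gave 12.4 points and an adjusted Fisher's exact p of 0.00200. The reads were spread differently in the libraries, since the fragment at 60016800 to 60016865, with 20.8% and 30.8%, had 24 reads in siCon and 52 in siH19.

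Along the Snrpn body the level differed between fragments, each with 1 or 2 compared cytosines. Fragments at 11.8, 17.1 and 30.9 kb upstream read 20.8% to 35.7% in siCon (24, 10 and 14 reads). In siH19 they read 30.8% to 50% (52, 34 and 16 reads). The fragment at 17.1 kb was 1255 bp long. Without cytosines in soft-masked repeats the Snrpn body kept fewer than 5 compared cytosines and was not tested. The 4 fragments between 37.1 and 121 kb upstream read 0% to 5.88% and 0% to 4.17%. A fragment at 17.8 kb read 0 of 6 and 0 of 9 reads, which allows up to 50% and 33.3%. Of the remaining bodies, Ube3a had 1 compared cytosine (0 of 6 reads in siCon and 10 of 30 in siH19), Magel2 had 1 (12 of 13 in each) and Mkrn3 none outside its window.

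For single cytosines, methylated and unmethylated reads were set against each other with Fisher's exact test (two-sided). Of the 411, 13 (3.16%) had p under 0.05 against 2.53% in the genome, 6 higher and 7 lower in siH19. A strong difference, of at least 33 points with p under 0.05, was found at 9 (2.19%) against 0.986% in the genome, 4 higher and 5 lower. None passed adjustment over the genome, where 0.00648% did, and the smallest adjusted p was 0.663. Intermediate cytosines, where a difference of 33 points can arise in either direction, were more frequent among the 411 than in the genome (41.8% against 20.0%), and their part in the count was not tested. By gene, the 9 strong differences were 5 in the Usp29 body, 3 at Magel2 and 1 at Peg12.

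The lowest p-value was at 6880648 (minus strand) in an intron of Usp29, with 16 of 17 reads methylated in siCon and 4 of 12 in siH19 (Fisher's exact p = 0.000862, 0.663 after adjustment). The next lower cytosines were 6677492 (plus strand) in coding sequence of Zim1, with 24 of 24 and 19 of 27 (p = 0.00464 by Fisher's exact test), and 62464263 (plus strand) in coding sequence of Peg12, with 8 of 21 and 0 of 17, which allows up to 17.6% (p = 0.00466 by Fisher's exact test). Higher in siH19 were 6952565 (minus strand) of Usp29, with 6 of 27 and 21 of 34 (p = 0.00390 by Fisher's exact test), 62377279 (minus strand) of Magel2, with 2 of 12 and 12 of 17 (p = 0.00778), and 6863403 (minus strand) of Usp29, with 3 of 11 and 24 of 32 (p = 0.00955). These 6 were named by p-value, 3 in each direction, and each rests on 11 to 34 reads per library. Those at 6880648 and 6952565, the lowest p in each direction, lie in soft-masked repeats.

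Both strands of a CpG are read separately and they did not always move together. At the CpG of the Magel2 cytosine above, the plus strand (62377278) went from 19 of 26 to 8 of 21 while the minus strand rose as given. Of 171 CpGs read on both strands, both strands moved in the same direction at 57 and in opposite directions at 46, and the others had no difference on at least 1 strand. Counted by CpG with the reads of both strands summed, 3 of 251 CpGs (1.20%) had a strong difference. The share over all CpGs of the genome was not taken in this way, so 1.20% cannot be placed against it.

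**Figure D5:**
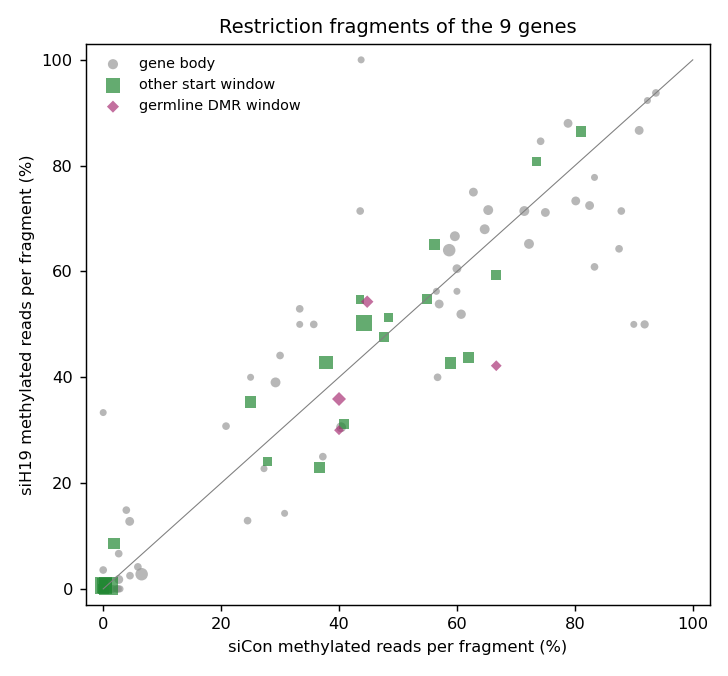
Methylation level of the 84 restriction fragments of the 9 genes, siH19 against siCon, with germline DMR fragments as diamonds, other start windows as squares and gene bodies as circles. Larger points hold more compared cytosines and the line marks equal levels. Fragments of the Ube3a and Zim1 starts lie at 8.59% or below, those of Peg12 and Mkrn3 between 23.0% and 65.1%, and the coding fragments of Peg3 and Zim1 mostly above 60%.

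Genes around the domains gave no call either. Of 19 listed neighbours 18 were annotated and 14 had a tested window, the Snurf window among them and a window with the same cytosines for Zim3 and Zfp264, and 0 were called, against 0.626% of all windows, with siCon levels from 0.440% at Cyfip1 to 66.9% at Gabra5. The lowest adjusted p among them was that of Zfp28, a zinc finger gene named here after its values were seen, at 1.57% in siCon and 5.43% in siH19 (3.02 ± 0.866 points, adjusted CMH chi-square p = 0.0350), short of 10 points. With the shared window counted once, the median difference over 13 windows was 1.32 points, and over all windows 0.0884 points. For the same kind of promoter elsewhere, 8 of 9 other maternally methylated promoters were tested and 1 was called. The call was Kcnq1ot1, at 30.6% and 48.0% (16.2 ± 4.62 points, adjusted CMH chi-square p = 0.0171), and the call was absent with windows of 500 bp or 2 kb and with a quasi-binomial test. Mcts2, named after its values were seen, had an adjusted p under 0.05 in the other direction without reaching 10 points, at 37.2% and 31.4% (-6.13 ± 1.99 points, adjusted CMH chi-square p = 0.0416). The siCon levels of the 8 ranged from 29.3% at Peg13 to 97.4% at Nnat, so the Snrpn and Peg3 values lay inside their range. Among genes for factors that keep imprints, 9 of 11 were tested and 0 were called, with siCon levels from 0.752% at Ctcf to 73.3% at Dnmt1.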

How the data were processed

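Per the study's methods, the authors digested DNA with TaqαI and MspI, aligned reads with Bismark in non-directional mode in a service pipeline and trimmed filled-in nucleotides. The submitters' processing notes name bcl2fastq 1.8.4 and mm10. Per cytosine and strand, the deposited values were a text field (another unit than a plain number) with methylated and total read counts, used here, and a score, the fraction times 1000, used only to check parsing (100% matched). All positions fell on CpGs of GRCm38. Removal of duplicates was not given in the sources used here.

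Groups came from the labels. The 9 genes, all lists and tests were chosen with earlier results of these data known. Genes were GENCODE vM21, with RefSeq starts of GRCm38 as an alternative added after the data were seen. Sequences were read from the GRCm38 genome. Cytosines with at least 5 reads per library were compared with Fisher's exact test (two-sided), and regions with at least 5 cytosines by the Cochran-Mantel-Haenszel chi-square test. Both had Benjamini-Hochberg adjustment genome-wide (Python 3.11.15, scipy 1.17.1). The regional test sets each cytosine against itself, so reads spread differently in the 2 libraries are not taken for a difference. Its weights still follow the depth of each cytosine. All 9 genes are named. Cytosines named from the tests are the 3 with the lowest p in each direction, and of other lists the called and the extreme members.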

Additional observations from a re-analysis of the deposited data

How the results depend on the processing

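Under 13 alternatives, 105 of 115 window and body differences kept their direction and whether they were called, and of 121 counts and levels 109 stayed within 1.5 times the count or inside the 95% interval of the level. Differences within these limits still moved in size, as given for Snrpn, Mkrn3 and Ube3a, and that of the Magel2 window was 1.24 points with windows of 500 bp. Others could not move, because the alternative kept the same cytosines. With the deepest 1% left out all 411 remained, and the Snurf window kept its 7 with windows of 500 bp or 2 kb. The 105 are thus not separate checks. With at least 10 reads per cytosine, 1 start window was called (Mkrn3, -12.8 points, adjusted CMH chi-square p = 0.0133) and Peg12 changed sign to 0.114. With CCGG and TCGA cytosines kept, 21 of 743 cytosines (2.83%) had p under 0.05 in place of 13 of 411 (3.16%), Peg12 changed sign to 0.346 and the Usp29 body to 0.924, and the germline DMRs read 64.8% and 54.2% at Snrpn and 49.2% and 45.4% at Peg3 in siCon and siH19. With strands summed, 3 of 251 CpGs were strongly different and Peg12 changed sign to 0.115. Without cytosines in soft-masked repeats, 10 of 365 (2.74%) had p under 0.05 by Fisher's exact test. A strong difference was found at 6 (1.64%), in place of 9 of 411 (2.19%). For the counts of cytosines, CpGs and called windows or bodies given here, the share over the genome was not taken under the alternatives. With summed reads and Fisher's exact test, 1 body was called (Snrpn, 12.4 points, adjusted p = 0.00200), 2 other maternally methylated promoters were called, and the Peg3 and Usp29 bodies changed sign to 2.75 and 1.97. The last 2 values were the same with the quasi-binomial test, under which 0 of the other maternally methylated promoters were called, as with windows of 500 bp or 2 kb. The causes were not tested, except that summed reads follow their spread over cytosines.

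No paired analysis was possible because there was 1 library per group, with no replicate to leave out. Differences between cultures, transfections or library preparations cannot be told apart from the knockdown.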
